A study of Mus musculus with 6 samples.

Results

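The genes described here are 8 mouse liver genes that depend on growth hormone or carry its signal: Ghr, Stat5a, Stat5b, Socs2, Hsd3b5, Cyp7b1, Elovl3 and Nudt7. They were taken as the non-control probes whose gene symbol, given in the array annotation or reached through its accession, was one of these names. All 8 were found, each with 1 probe of the 20868 probes on the array, and all 8 probes passed the filter on dim signals. Socs2 is listed on the array under its older symbol Cish2.

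The study compared RNA from C3H/HeNCrlBR mice at 39 weeks of age on 6 Agilent 2-colour arrays, 2 arrays with exchanged dyes for each of 3 comparisons, to find genes that are regulated by CAR and change as liver tumours develop. CAR is a nuclear receptor that mediates the liver's response to phenobarbital (PB), and CAR-KO mice lack it. All 4 RNAs came from animals given diethylnitrosamine (DEN), a carcinogen that starts liver tumours. They were liver tumour of WT mice after DEN and PB (2 channels), CAR-KO liver given DEN and PB (6 channels), WT liver after DEN and PB (2 channels) and CAR-KO liver after DEN alone (2 channels). PB is a tumour promoter and was given in the drinking water. The first comparison set the WT tumour against CAR-KO liver, so genotype and tumour changed together and cannot be told apart in it. The second set CAR-KO against WT liver, and the third set DEN plus PB against DEN alone in CAR-KO liver. CAR-KO liver given DEN and PB was on every array, so the 3 comparisons share it. The labels give neither the sex of the mice, nor how many animals stood behind each RNA, nor whether the 2 arrays of a pair carried the same RNA. The p-values below therefore measure only the spread between arrays, which may be technical.

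Growth hormone binds its receptor, which activates the kinase JAK2; JAK2 phosphorylates STAT5 proteins, and these enter the nucleus and bind target genes. In rodents the pituitary releases the hormone in pulses in males and more continuously in females, and the liver reads this difference through STAT5b, so that many liver genes are male-biased or female-biased. SOCS2 is made in response to the hormone and dampens its signal. Hsd3b5, Cyp7b1, Elovl3 and Nudt7 are male-biased genes of mouse liver.

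Promoter windows were available for 5 of the 8 genes, in 9 windows that run from 250 bases before to 50 bases after an annotated start site (RefSeq, GRCm38.p6). The windows of Hsd3b5 and of 1 start site of Nudt7 are shown because these genes were both lower in the tumour. Bases from the start site on are in capitals, and both sequences read 5′ to 3′ on the gene's strand. The Hsd3b5 window is chr3:98645485-98645784 on the minus strand and the Nudt7 window is chr8:114133368-114133667 on the plus strand.
Hsd3b5: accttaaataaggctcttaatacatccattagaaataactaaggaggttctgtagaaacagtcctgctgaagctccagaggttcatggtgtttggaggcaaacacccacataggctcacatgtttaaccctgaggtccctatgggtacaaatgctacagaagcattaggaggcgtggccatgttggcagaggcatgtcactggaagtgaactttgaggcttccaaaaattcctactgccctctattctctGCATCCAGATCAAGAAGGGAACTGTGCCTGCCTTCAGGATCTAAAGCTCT
Nudt7: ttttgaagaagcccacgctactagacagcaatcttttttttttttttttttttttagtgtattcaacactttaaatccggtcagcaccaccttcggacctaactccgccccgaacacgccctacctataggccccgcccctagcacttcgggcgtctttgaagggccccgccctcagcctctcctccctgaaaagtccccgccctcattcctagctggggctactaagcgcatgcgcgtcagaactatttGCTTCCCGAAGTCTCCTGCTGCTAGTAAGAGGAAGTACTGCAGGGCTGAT
The letters TTCNNNGAA, the consensus of STAT5 binding, which reads the same on both strands, were searched in these windows. None of the 9 windows of Ghr, Stat5a, Stat5b, Hsd3b5 and Nudt7 held them, and 8.3% of all 32851 windows in the table did. This says only that these letters are not in these windows. No window was searched for Cyp7b1, Elovl3 or Socs2.

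All 8 probes were well above background in all 12 channels, and none was saturated. The probes of Nudt7, Ghr, Cyp7b1, Elovl3 and Hsd3b5 were bright, at percentiles 99.1, 98.2, 97.9, 96.3 and 95.7 of mean signal among all probes. Those of Stat5a, Stat5b and Socs2 were of middle brightness, at percentiles 63.1, 42.7 and 41.4. Brightness depends on the probe as well as on the transcript, so these ranks do not order the genes by abundance. The arrays' median spot signals were 187 to 494 in Cy3, with 129 to 418 in Cy5, and median background was 53 to 62 on 5 arrays. On array 2 of the tumour comparison the background was 288 in Cy3 and 299 in Cy5. Before the dye effect was removed, the arrays of the DEN plus PB against DEN pair correlated at r = -0.35 across probes after being turned the same way, against 0.39 for the tumour pair and 0.03 for the CAR-KO against WT pair. With the dye effect removed these values were 0.17, 0.65 and 0.22. The dye effect was estimated from the same arrays, and removing it raises the correlation of a dye-exchanged pair even where its arrays share no signal. The rise therefore does not show that the arrays of a pair agree. Of 7 hepatocyte markers only Ttr and Apoa1 were measured, and both were well above background in all 12 channels.

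**Figure D1:**
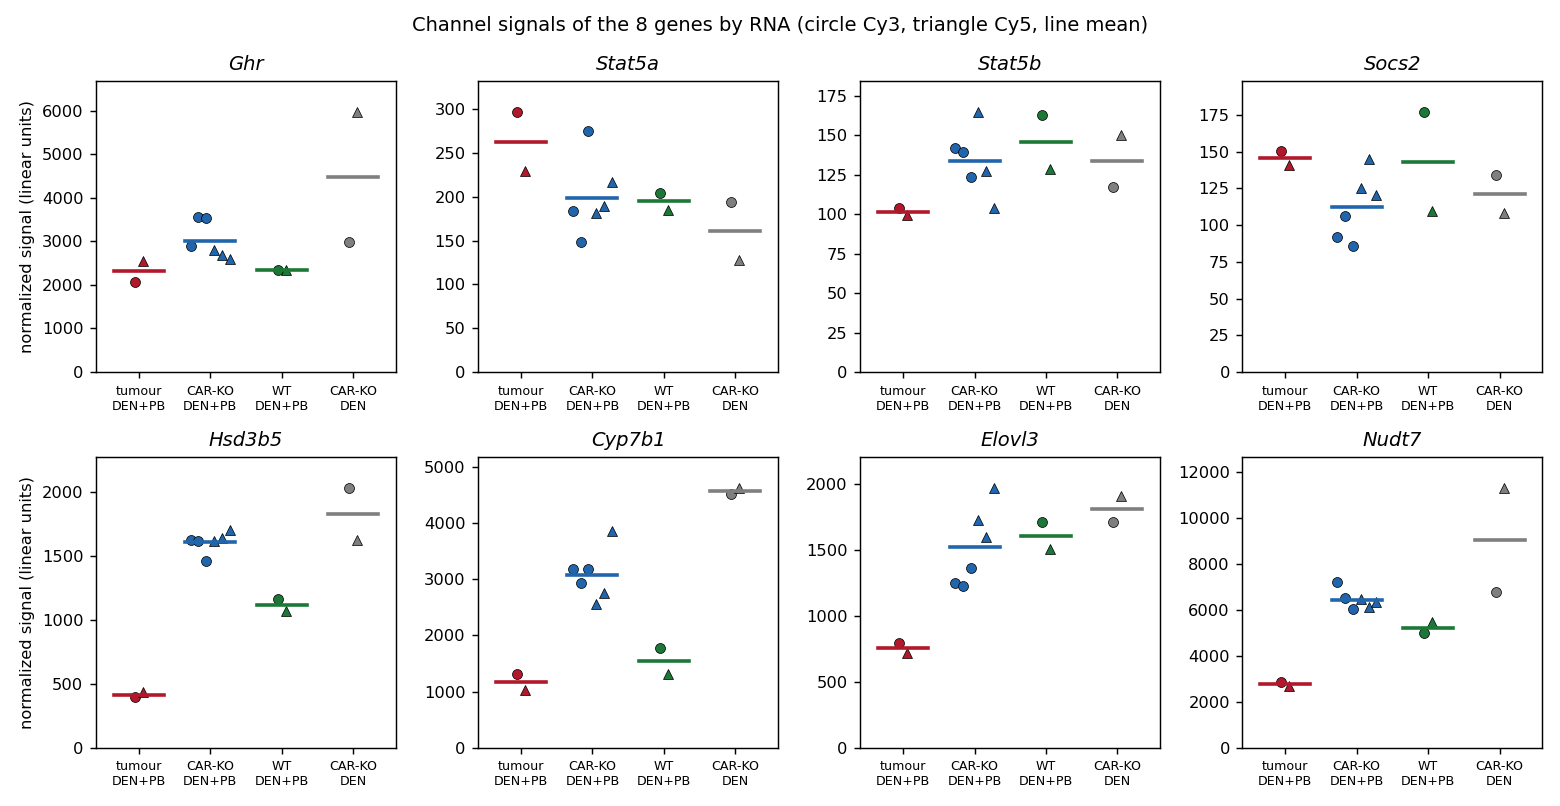
Normalized signal of each of the 8 genes (linear units, axes from 0, a scale for each panel) in tumour, CAR-KO and WT RNA after DEN and PB and in CAR-KO RNA after DEN alone; circles are Cy3 channels, triangles Cy5 channels and lines means. For Hsd3b5, Nudt7 and Elovl3 both tumour channels lie under every channel of the other RNAs, with means of 416, 2779 and 755 in the tumour. For Cyp7b1 and Stat5b the higher tumour channel lies only just under the lowest channel of the other RNAs.

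In the WT tumour, 4 of the 8 genes were lower than in CAR-KO liver and none was higher. The 4 were the male-biased enzymes Hsd3b5, Cyp7b1, Elovl3 and Nudt7, with falls between 2.18-fold and 3.79-fold, whereas the receptor, both STAT5 genes and Socs2 did not pass the test. The test was limma's moderated test on all 6 arrays with a dye effect for each probe, and a gene was called where its p, adjusted by Benjamini and Hochberg's method across every tested probe, was under 0.05. It called 3.36% of the 20744 probes tested, with 524 higher (2.53%) and 174 lower (0.839%). The median log2 ratio of tumour over CAR-KO was -0.76 over the 8 genes, against 0.02 over all 9497 genes tested. The figure for all genes was not matched for brightness, and the probes of the 4 called genes were bright. The size of the falls depended on normalization. With median centring in place of loess the log2 ratios of Hsd3b5, Cyp7b1, Elovl3 and Nudt7 were -1.40, -0.98, -0.56 and -0.48, and Nudt7 did not pass. These 8 genes were chosen with earlier results of the same arrays known, so the count is a description of them. On the signals as processed by the Agilent software, where 0 probes in all were called, none of the 4 passed (adjusted p-values between 0.122 and 0.240), and their log2 ratios were -2.02 for Hsd3b5, -1.64 for Cyp7b1, -1.17 for Elovl3 and -1.15 for Nudt7.

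**Figure D2:**
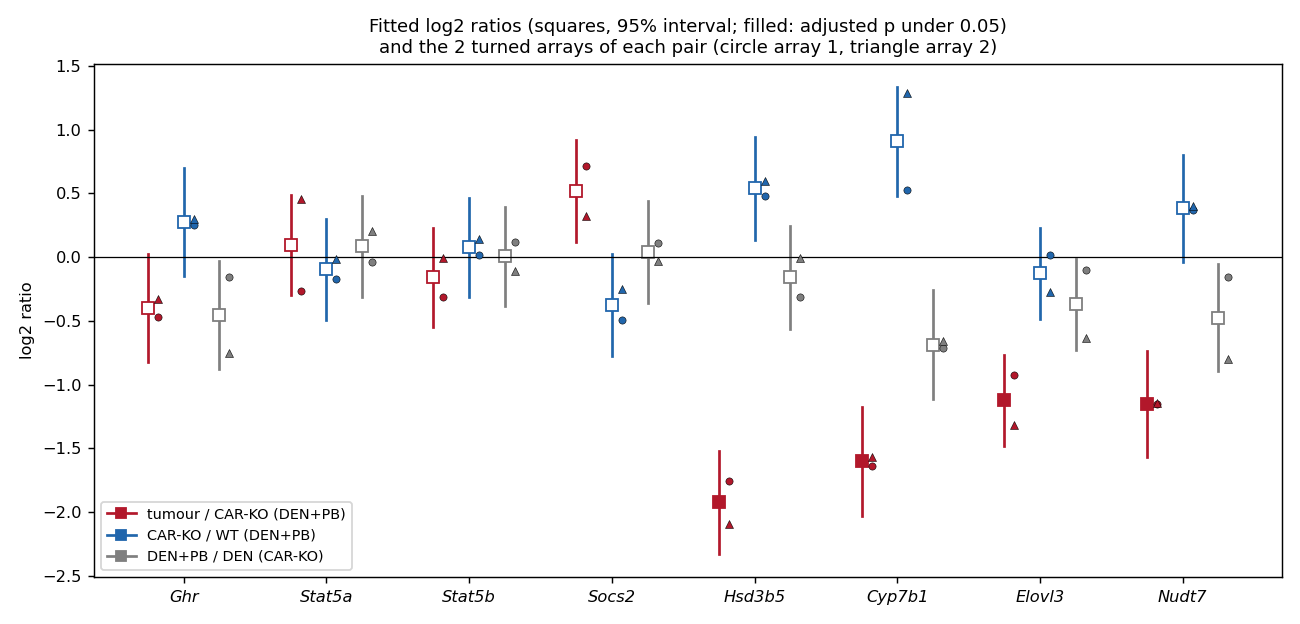
Log2 ratios (y axis) of the 8 genes (x axis) for WT tumour over CAR-KO liver, CAR-KO over WT liver, and DEN plus PB over DEN alone in CAR-KO liver. Squares with bars are fitted ratios with 95% intervals, filled where the adjusted p was under 0.05, and small circles and triangles are arrays 1 and 2; filled squares appear only for the tumour ratios of Hsd3b5, Cyp7b1, Elovl3 and Nudt7, between -1.92 and -1.12.

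Ghr encodes the growth hormone receptor, through which all of the signal enters the hepatocyte. Its normalized signal was 2560.3 and 2067 in the tumour, and in CAR-KO liver given DEN and PB it ran from 2596 through a median of 2840.4 to 3551. It was 2343 and 2344 in WT liver and 2994 and 5965 in CAR-KO liver after DEN alone. Both tumour channels lay below the 6 CAR-KO channels with DEN and PB and on either side of the WT values. The log2 ratio of tumour over CAR-KO was -0.40 ± 0.18 (SE), with -0.47 and -0.33 on the arrays, a 95% interval of -0.82 to 0.03 and an adjusted p of 0.235. With median centring in place of loess its sign turned, to 0.26. CAR-KO over WT gave a log2 ratio of 0.28 ± 0.18 (0.25 and 0.30 on the arrays), and that of DEN plus PB over DEN was -0.45 ± 0.18. The last value was unequal between its arrays, at -0.16 and -0.75, and the high channel of 5965 was the Cy5 channel of array 2.

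Stat5a and Stat5b encode the transcription factors that carry the signal to the nucleus, of which STAT5b is the main one in liver. The 2 genes are close relatives, and whether either probe also binds the other transcript was not examined. Stat5a had a signal of 229 and 297 in the tumour, and 148, a median of 187 and 275 as its range in CAR-KO liver given DEN and PB. These channels overlapped, and the WT values of 205 and 186 lay within the CAR-KO range and below both tumour channels. In CAR-KO liver after DEN alone Stat5a had 195 and 128. Its log2 ratio of tumour over CAR-KO was 0.09 ± 0.17, with -0.26 and 0.45 on the arrays, so the arrays disagreed in sign (95% interval -0.30 to 0.49, adjusted p = 0.765 by limma).

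Stat5b had a signal of 99.5 and 104 in the tumour, against 104, a median of 133 and 165 as its range in CAR-KO liver given DEN and PB. It had 163 and 129 in WT liver, and 117 and 150.3 in CAR-KO liver after DEN alone. Both tumour channels lay just below the lowest CAR-KO channel, the higher of them by less than 1 unit. On the arrays themselves the difference was small and uneven, with a log2 ratio of -0.31 on array 1 and -0.01 on array 2. The fitted value was -0.16 ± 0.17 (95% interval -0.55 to 0.23, adjusted p = 0.590 by limma). In the other 2 comparisons the log2 ratios of both STAT5 genes lay between -0.09 and 0.08.

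Socs2 encodes a feedback inhibitor of the receptor and is itself switched on by STAT5b. Its signal was 141 and 150.4 in the tumour, against 85.6, a median of 113 and 145 as its range in CAR-KO liver given DEN and PB. It was 177 and 109 in WT liver, and 134 and 108 in CAR-KO liver after DEN alone. The tumour and CAR-KO channels overlapped at the upper end of the CAR-KO range. Socs2 had the only positive tumour over CAR-KO ratio above 0.10 among the 8 genes, at 0.52 ± 0.17 on the log2 scale (0.72 and 0.32 on the arrays, 95% interval 0.12 to 0.92), and its adjusted p was 0.140. Without array 1 of the tumour pair its ratio was 0.30 with an adjusted p of 0.688, and without array 2 it passed, at 0.74 with an adjusted p of 0.0342. The fit without array 2 called 1799 probes higher and 2909 lower in all. CAR-KO over WT gave a log2 ratio of -0.37 ± 0.17 and was not called, and DEN plus PB over DEN gave 0.04 ± 0.17.

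Hsd3b5 encodes a member of the 3-beta-hydroxysteroid dehydrogenase family that is made in the liver of male mice, where it acts on steroid hormones. Its signal was 433 and 399.9 in the tumour, and 1458, a median of 1620.1 and 1705 as its range in CAR-KO liver given DEN and PB. It was 1160.2 and 1069.8 in WT liver, and 2033 and 1626 in CAR-KO liver after DEN alone. The tumour channels stood below all 10 others, the WT channels came next, and the 2 CAR-KO livers overlapped at the top. The log2 ratio of tumour over CAR-KO was -1.92 ± 0.17, with -1.75 and -2.09 on the arrays, which is 3.79-fold lower (adjusted p = 0.00199 by limma). It ranked 66th by p-value among all tested probes. With median centring the log2 ratio was -1.40 (adjusted p = 0.00298 by limma), and in the tumour pair alone it passed narrowly (adjusted p = 0.0497 by limma). CAR-KO over WT gave a log2 ratio of 0.54 ± 0.17, positive on both arrays (0.48 and 0.60), and did not pass (unadjusted p = 0.0152 by limma). DEN plus PB over DEN gave -0.16 ± 0.17.

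Cyp7b1 encodes oxysterol 7-alpha-hydroxylase, an enzyme of the alternative pathway of bile acid synthesis. Its signal was 1025 and 1303 in the tumour, and 2565, a median of 3053 and 3856 as its range in CAR-KO liver given DEN and PB. It was 1781 and 1304 in WT liver, and 4515 and 4622 in CAR-KO liver after DEN alone. By value the tumour was lowest, then WT liver, CAR-KO liver with both agents and CAR-KO liver with DEN alone. The channels of these 4 RNAs did not overlap, although the higher tumour channel (1303) and the lower WT channel (1304) were next to each other. The tumour was 3.03-fold lower than CAR-KO liver, at a log2 ratio of -1.60 ± 0.18 with -1.64 and -1.56 on the arrays (adjusted p = 0.00490 by limma). With median centring the log2 ratio was -0.98 and still passed, and in the tumour pair alone it did not (adjusted p = 0.0593). Of the 8 genes Cyp7b1 had the largest ratio in size in both other comparisons. In CAR-KO over WT it stood at 0.91 ± 0.18, with 0.53 on array 1 and 1.29 on array 2, and did not pass (adjusted p = 0.392). Weighting the arrays left this ratio at 0.91 and brought its adjusted p to 0.0311 by limma. The calls over all probes rose at the same time, from 2 higher and 19 lower to 17 higher and 70 lower. For DEN plus PB over DEN it was -0.69 ± 0.18, alike on both arrays at -0.71 and -0.66, and did not pass (unadjusted p = 0.00628 by limma, rank 26 of 20742 probes).

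Elovl3 encodes an enzyme that lengthens long saturated fatty acids. Its signal was 719 and 791 in the tumour, and 1225, a median of 1479.8 and 1969 as its range in CAR-KO liver given DEN and PB. It was 1707 and 1508 in WT liver, and 1712 and 1904 in CAR-KO liver after DEN alone. Both tumour channels were below all others. The channels of CAR-KO liver given DEN and PB overlapped those of both other liver RNAs. WT liver and CAR-KO liver after DEN alone did not overlap, although 1707 and 1712 were next to each other. The log2 ratio of tumour over CAR-KO was -1.12 ± 0.15, with -0.93 and -1.32 on the arrays, which is 2.18-fold lower (adjusted p = 0.0104 by limma). With median centring it was -0.56 (adjusted p = 0.0416). It did not pass in the tumour pair alone or with array weights (adjusted p = 0.170 and 0.0554). In CAR-KO over WT the log2 ratio was -0.13 ± 0.15, with 0.02 and -0.27 on the arrays, and DEN plus PB over DEN gave -0.37 ± 0.15.

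Nudt7 encodes a peroxisomal hydrolase that breaks down coenzyme A and its esters. Its signal was 2700.1 and 2858 in the tumour, and 6012, a median of 6389 and 7179.6 as its range in CAR-KO liver given DEN and PB. It was 4985 and 5450.2 in WT liver, and 6769.8 and 11288 in CAR-KO liver after DEN alone. The tumour channels were lowest, WT came next, and the 2 CAR-KO livers overlapped, the value of 11288 being again the Cy5 channel of array 2. The arrays of the tumour pair gave -1.15 and -1.15 and the fit -1.15 ± 0.18, which is 2.22-fold lower (adjusted p = 0.0176 by limma). With median centring the log2 ratio was -0.48 and did not pass (adjusted p = 0.0856), nor did it pass in the tumour pair alone or with array weights (adjusted p = 0.140 and 0.0944). In CAR-KO over WT the log2 ratio was 0.38 ± 0.18, with 0.37 and 0.40 on the arrays, and that of DEN plus PB over DEN was -0.47 ± 0.18, with -0.15 and -0.80.

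**Figure D3:**
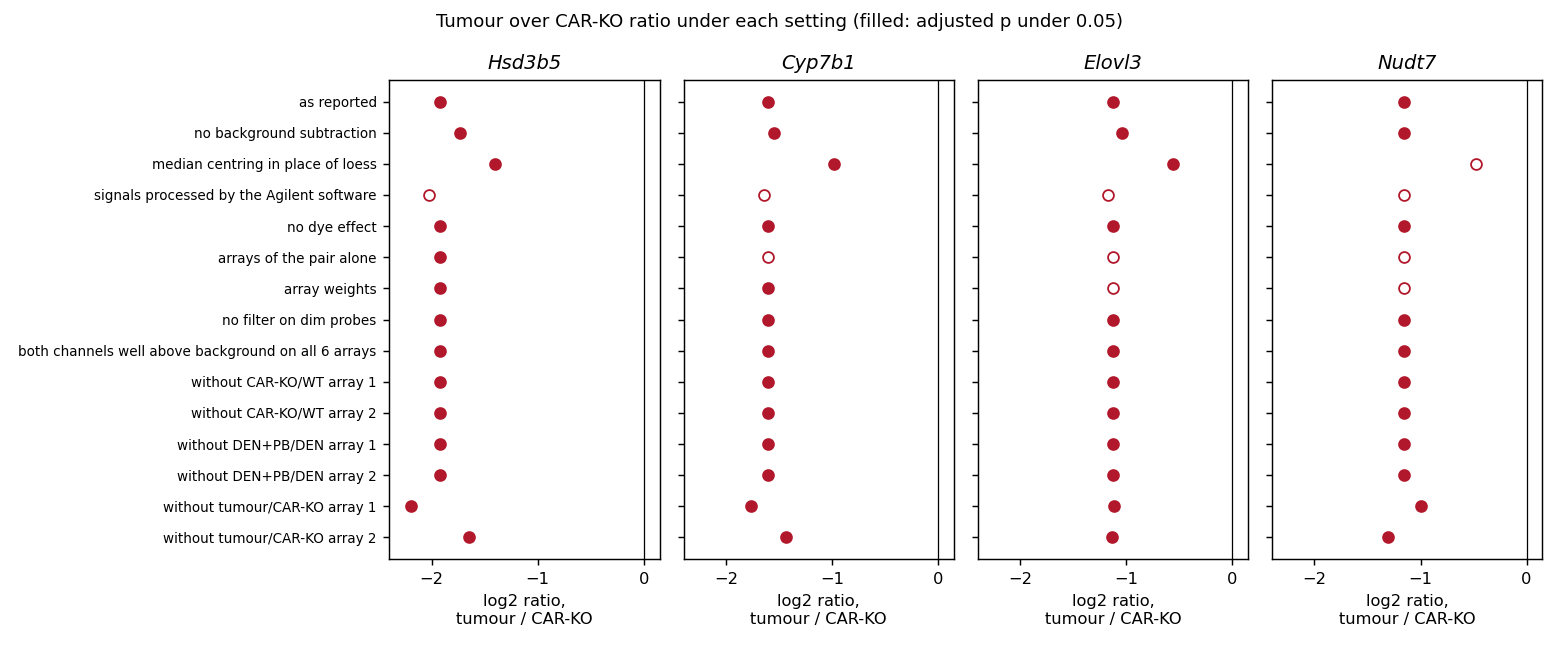
Log2 ratio of WT tumour over CAR-KO liver (x axis) for Hsd3b5, Cyp7b1, Elovl3 and Nudt7 under the setting reported and 14 alternatives (rows), filled where the adjusted p was under 0.05. All ratios lie below 0, from -2.20 for Hsd3b5 to -0.48 for Nudt7, and open circles mark the settings in which a gene did not pass.

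The CAR-KO against WT comparison called none of the 8 genes, against 0.101% of 20743 probes (2 higher, 0.00964%, and 19 lower, 0.0916%). At an unadjusted p under 0.05, 2 of the 8 were higher in CAR-KO liver, Cyp7b1 and Hsd3b5, and none was lower, while 471 of all probes passed that threshold. The median log2 ratio of CAR-KO over WT was 0.18 over the 8 genes and 0.01 over all genes. Cyp7b1, Hsd3b5, Nudt7, Ghr and Stat5b were positive on both arrays, Socs2 and Stat5a were negative on both, and Elovl3 had arrays of opposite sign.

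The comparison of DEN plus PB with DEN alone in CAR-KO liver called none of the 8 genes and 0% of 20742 probes, with a smallest adjusted p of 0.0937. At an unadjusted p under 0.05 it gave 565 probes, among them 4 of the 8 genes (Cyp7b1, Nudt7, Ghr and Elovl3), all with negative ratios. The median was -0.26 over the 8 genes and 0.00 over all genes. Nudt7, Ghr and Elovl3 had their more negative value on array 2, and Cyp7b1 had like values on both arrays.

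WT tumour was never on an array with WT liver, so that comparison is indirect, the sum of the tumour over CAR-KO and the CAR-KO over WT ratios. It called none of the 8 genes and 0% of 20743 probes (smallest adjusted p 0.137), with 1737 probes and 4 of the 8 genes at an unadjusted p under 0.05. The log2 ratio of tumour over WT was -1.38 ± 0.24 for Hsd3b5, -1.25 ± 0.22 for Elovl3, -0.77 ± 0.25 for Nudt7 and -0.69 ± 0.26 for Cyp7b1, with adjusted p-values of 0.227, 0.213, 0.562 and 0.585. For Elovl3 the ratio was -1.12 against CAR-KO and -1.25 against WT liver. For Cyp7b1 the ratio was -1.60 against CAR-KO and -0.69 against WT, and with median centring the ratio against WT was 0.047. Ghr, Socs2 and Stat5b had log2 ratios of -0.12, 0.15 and -0.08 against WT liver. Over 13 alternatives the ratio against WT ran from -1.66 to -0.75 for Hsd3b5 and from -1.34 to -0.57 for Elovl3. Fits with 1 tumour array left out hold no spread between tumour arrays, so their p-values are not given for this comparison.

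In tumour over CAR-KO, 3 of 4 measured skeletal muscle markers and 1 of 3 measured bile duct markers were called. Of 5 skeletal muscle markers 4 were measured, and their summed signal was 420 to 434 in the tumour, 842 to 1261 in CAR-KO liver given DEN and PB, 469 to 474 in WT liver and 475 to 482 in CAR-KO liver after DEN alone. Tnnc2, Mylpf and Tnni2, proteins of the contractile fibre, were lower in the tumour, at log2 ratios of -1.83, -1.25 and -1.01, and Tnnc2 was higher in CAR-KO than in WT liver, at 1.78. Ckm, the muscle creatine kinase, had -0.05 in tumour over CAR-KO and -0.29 in CAR-KO over WT and was not called. The part of this muscle signal in the ratios of the 8 genes was not tested. The bile duct marker Krt19 was higher in the tumour (1.13 ± 0.16, adjusted p = 0.0135), while Krt7 and Epcam were not called. The hepatocyte markers Ttr and Apoa1 had tumour over CAR-KO ratios of -0.26 ± 0.16 and -0.12 ± 0.38 and were not called. The arrays disagreed in sign for Apoa1, at -0.68 and 0.43, so its value says little. In such bulk RNA, fewer cells of a type and less RNA per cell cannot be told apart.

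By the root mean square difference of log2 ratios over the 6 arrays among 9414 genes, the genes most like Hsd3b5 were Mug1, Gldc and Pck1, at 0.25, 0.27 and 0.32, where the median gene differed by 1.20. Pck1 encodes the enzyme that commits the liver to making glucose, and Gldc a subunit of the glycine cleavage system. Cyp7b1 stood further from its nearest genes, Fgg, Fmc1 and Hsd3b5, at 0.42, 0.46 and 0.47. Nudt7 lay close to Dmgdh, Fmc1 and Cyp2j5, at 0.12, 0.13 and 0.15. Dmgdh encodes a mitochondrial enzyme of choline breakdown and Cyp2j5 a fatty acid epoxygenase. Within the 8 genes the nearest pair was Stat5a with Stat5b, at 0.26, followed by Elovl3 with Nudt7 and Ghr with Stat5b, at 0.34 each.

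The genes most like Elovl3 were Mocs1, Zic1 and Sln, at 0.21, 0.23 and 0.25. Elovl3 and Zic1 are also known from brown fat, so 11 measured genes of fat tissue were looked up after these values had been seen. In tumour over CAR-KO, 3 of the 11 were called lower: Ucp1, the heat-producing uncoupling protein of brown fat (-1.37 ± 0.20), Zic1 (-0.94 ± 0.17) and Cidea (-0.91 ± 0.16). Adipoq, the adipocyte hormone adiponectin, had -0.21 ± 0.15, and Fabp4, a fatty acid carrier of fat cells and macrophages, had 0.87 ± 0.19. The remaining genes were Retn (-0.67), Cox8b (-0.61), Cfd (-0.39), Lep (-0.11), Dio2 (0.01) and Cox7a1 (0.18). None of these was called. In DEN plus PB over DEN, Ucp1 and Cidea had positive ratios of 0.56 and 0.90, while Zic1 and Elovl3 had -0.18 and -0.37. The part of these genes' source in the Elovl3 ratio was not tested.

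Around the 8 genes, 17 of 18 other genes of growth hormone signalling were measured, and in tumour over CAR-KO 1 of them was called, lower. It was Igf1, the growth factor that the liver makes in response to the hormone, at a log2 ratio of -1.68 ± 0.19 (-1.48 and -1.87 on the arrays, adjusted p = 0.00490 by limma). Igfals, which encodes the serum partner of that growth factor, had -0.60 ± 0.37 and was not called. The next by size were Ptpn11 (-0.51 ± 0.28), whose arrays were uneven at -1.10 and 0.07, Socs1 (-0.43 ± 0.16) and Ptpn6 (-0.38 ± 0.18), and none was called. The highest of the 17 was Ptpn1, a tyrosine phosphatase gene, at 0.38 ± 0.19, also not called. The median of the 17 genes was -0.08. None of the 17 was called in CAR-KO over WT or in DEN plus PB over DEN, where 2 genes each had an unadjusted p under 0.05. The largest value there was that of Igfals after PB, 1.05 ± 0.37, which came from 1 array (-0.16 and 2.26). Igf1 had 0.59 ± 0.19 in CAR-KO over WT, with 0.69 and 0.48 on the arrays. In the indirect tumour over WT comparison its log2 ratio was -1.09 ± 0.27 and was not called (adjusted p = 0.376 by limma).

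Of 18 further male-biased liver genes 11 were measured. In 1 of these, the major urinary protein gene Mup1, the probe was saturated in all 12 channels, and the gene belongs to a family of near-identical genes. Mup1 was called lower in tumour over CAR-KO (-1.03 ± 0.21), but saturated signals do not measure a ratio, so it is left out of the counts here. Of the other 10 genes 1 was called lower in the tumour than in CAR-KO liver, Egfr, and none higher. Egfr, the receptor of epidermal growth factor, had a log2 ratio of -0.90 ± 0.16 (-0.76 and -1.04 on the arrays, adjusted p = 0.0296) and passed in 6 of 14 alternatives. Gstp1, Slco1a1 and Selenbp2 had -0.78 ± 0.28, -0.68 ± 0.19 and -0.39 ± 0.28 and were not called. The median of the 10 was -0.21. Cyp2d9 and Ugt2b38, both male-biased enzymes of drug and steroid metabolism, had positive ratios of 0.22 ± 0.34 and 0.19 ± 0.16, not called. None of the 10 was called in CAR-KO over WT or in DEN plus PB over DEN, with 0 and 2 at an unadjusted p under 0.05.

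Of 23 female-biased genes 15 were measured, and in tumour over CAR-KO 5 were called higher and none lower, with a median of 0.30. They were Cyp2b13 (4.56 ± 0.18), Cyp2b9 (4.23 ± 0.20), Cyp2a4 (2.66 ± 0.32), Akr1b7 (2.22 ± 0.16) and the oestrogen sulfotransferase gene Sult1e1 (1.95 ± 0.18). In CAR-KO over WT 3 of the 15 were called lower, Cyp2b9 (-4.76 ± 0.20), Cyp2b13 (-3.61 ± 0.18) and Sult1e1 (-1.77 ± 0.18). Cyp2b9 and Cyp2b13 are near-identical genes of the family that CAR switches on, and their probes may share transcripts. In the indirect tumour over WT comparison none of the 15 was called, with 3 at an unadjusted p under 0.05. Cyp2a4 and Cyp3a41a were each saturated in 1 channel, and Cyp2a4 was uneven between the arrays, at 3.81 and 1.51. The female-biased P450 genes Cyp3a41a, Cyp3a16 and Cyp2c40 had tumour over CAR-KO ratios of 0.30, 0.21 and 0.25, none called.

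**Figure D4:**
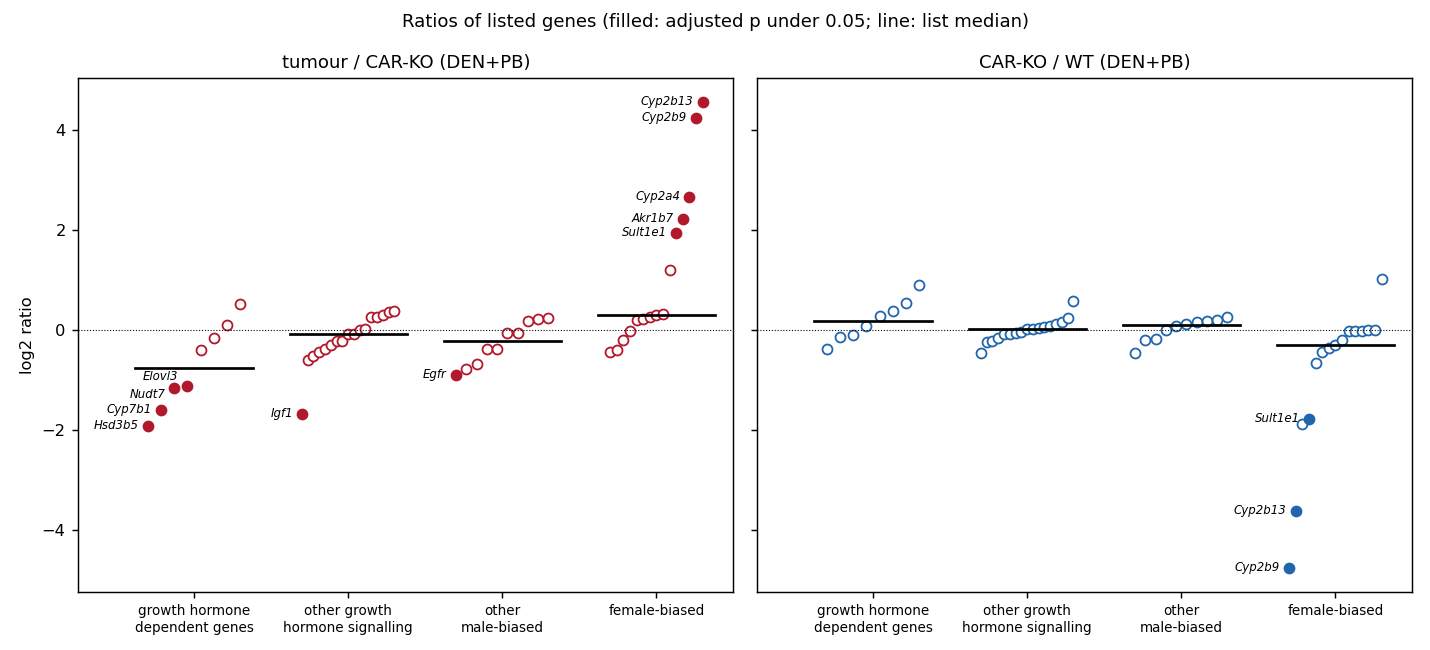
Log2 ratios (y axis) of single genes in 4 lists (x axis), for WT tumour over CAR-KO liver on the left and CAR-KO over WT liver on the right; filled points have an adjusted p under 0.05 and are named, lines are medians of the drawn genes, and the saturated Mup1 is not drawn. On the left the 4 lowest of the growth hormone dependent genes, Igf1 and Egfr are filled below 0 and 5 female-biased genes above it, and on the right only Cyp2b9, Cyp2b13 and Sult1e1 are filled.

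The sex chromosome transcripts Xist, Eif2s3y and Kdm5d were well above background in all 12 channels and none was called in any comparison. Their tumour over CAR-KO ratios were -0.05, -0.13 and 0.03 on the log2 scale. Eif2s3y and Kdm5d lie on the Y chromosome, and their signal was present in all 4 RNAs. Uty, a further Y gene, was well above background in 1 of 12 channels, one of CAR-KO liver given DEN and PB, and was not tested. Xist was dim, with normalized signals from 65.6 to 110.2, a range that overlapped the 54.2 to 73.2 of Uty. Its values therefore do not say whether the Xist transcript was present in any of the RNAs.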

How the data were processed

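The authors hybridised liver or tumour RNA on 6 Agilent 2-colour arrays and deposited spot intensity values read with Feature Extraction, version 7.1.1 on 5 arrays and 7.5.1 on array 2 of the tumour pair, per the file headers (7.5 per the submitters' processing notes). The log10 ratios of Cy5 over Cy3 in those files, which the authors background-subtracted and dye-normalized, per the file headers, equal the deposited value table. Which RNA was in which dye was taken from the labels.

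Mean and background intensity were corrected with normexp (offset 50), with control spots left out afterwards, and normalized by loess within each array in limma 3.58.1 (R 4.3.3). Spots of a probe were averaged, and each log2 ratio was turned to have the same RNA on top. Spots marked as outliers were left out. A probe was tested where it was well above background in either channel on at least 2 arrays. One model over 6 arrays held the 3 comparisons and a dye effect per probe, leaving 2 residual degrees of freedom, and the number of arrays limits the precision. Signals by channel are after loess and quantile normalization of average intensity. The script was tested on simulated data. No column of values was left unused.

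Genes were named by accession for 8947 probes and by symbol or older symbol for 374 and 363, while 11184 stayed unnamed. The members and gene lists were chosen with earlier results of these data known. Named genes were every member and every called gene of a list, up to 6 by size of ratio. Further genes of the lists were given as values and were not always the next in size. The 3 genes nearest to each member with a log2 ratio of at least 1 in size were also named. The fat genes were added after values had been seen. Alternatives changed background, normalization, starting signals, dye term, samples, weights, dim filter and single arrays.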

Additional observations from a re-analysis of the deposited data

Results flagged for a closer look

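Among 8 groups of 6 channels, 1 for each gene in CAR-KO liver given DEN and PB, 1 held a channel far from the rest. Hsd3b5 had a log2 signal of 10.51 (1458 in linear units) in the Cy3 channel of array 1 of the tumour pair, and the nearest channel had 10.66 (1615). The gap made up 0.653 of the whole range of the group. Chance gives such a channel in about 1 in 20 groups. The tumour channels of Hsd3b5, at 433 and 399.9, lay well below this lowest CAR-KO channel.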

How the results depend on the processing

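Over the 8 genes and 4 comparisons, 400 alternative values kept their direction and their side of the threshold, 8 passed newly, 10 no longer passed and 22 changed sign, none of these 22 past the threshold. Tumour over CAR-KO was negative in all 14 alternatives for Hsd3b5, Cyp7b1, Elovl3 and Nudt7, which passed in 13, 12, 11 and 10 of them.

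With Agilent's processed signals 0 of the 8 genes were called in tumour over CAR-KO, with the pair alone 1 and with array weights 2. With weights 1 was called in CAR-KO over WT. The tumour arrays had the lowest weights, 0.486 each, against 1.77 for the CAR-KO against WT arrays and 1.16 for the DEN plus PB against DEN arrays. A lower weight means more spread, and the main fit pooled the spread of all 6 arrays. Signs turned with median centring for Ghr in tumour over CAR-KO (0.26), for Cyp7b1, Nudt7, Ghr and Stat5a in tumour over WT (0.047, 0.048, 0.66 and 0.19) and for Hsd3b5 and Stat5b in DEN plus PB over DEN (0.080 and -0.0098). They turned for Stat5b in DEN plus PB over DEN without background subtraction (-0.00031) and for Stat5a in tumour over WT on Agilent's signals (0.027). The cause was not tested.

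Leaving out single arrays gave 4 to 5 called genes in tumour over CAR-KO, 0 to 1 in CAR-KO over WT and 0 to 2 in tumour over WT. Over the same fits, tumour over CAR-KO was -0.16 to 0.35 for Stat5a and -0.34 to 0.022 for Stat5b, and CAR-KO over WT was -0.26 to 0.067 for Stat5a. DEN plus PB over DEN was -0.36 to 0.045 for Hsd3b5, -0.012 to 0.18 for Stat5a and -0.22 to 0.23 for Stat5b. Tumour over WT was -0.33 to 0.084 for Ghr, -0.11 to 0.40 for Socs2, -0.26 to 0.26 for Stat5a and -0.26 to 0.10 for Stat5b. A fit that leaves 1 array in a pair assumes that array to vary like the others.

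Over all probes, tumour over CAR-KO gave 524 higher and 174 lower, but 2370 and 1763 with median centring, 0 and 0 on Agilent's signals, 53 and 9 in the pair alone, 186 and 41 with weights, 368 and 99 without the dye effect, 318 and 100 without a CAR-KO against WT array, 218 and 67 without a DEN plus PB against DEN array, and 1799 and 2909 without array 2 of the tumour pair. CAR-KO over WT ranged over 0 to 18 higher and 0 to 76 lower, DEN plus PB over DEN over 0 to 6 higher, and tumour over WT over 0 to 426 higher and 0 to 1738 lower. Each ratio already pairs the RNAs of 1 array, and pairing by animal was not possible because the labels name no animals. Slide as a block was not run because each slide holds 1 array.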
